A study of Mus musculus with 2 samples.

Results

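Pericyte and smooth muscle nuclei, together called mural nuclei because these cells wrap the walls of small vessels, were picked out of RNA profiles of single nuclei from mouse cerebral cortex. A nucleus was counted as mural when at most 5% of its transcripts were mitochondrial, at least 3 of the 10 genes Pdgfrb, Rgs5, Kcnj8, Abcc9, Vtn, Atp13a5, Higd1b, Notch3, Slc38a11 and Myh11 were detected, and at most 1 of the 7 genes Flt1, Pecam1, Adgrl4, Slc17a7, Gad2, Mog and Csf1r was detected. This rule was met by 134 of 17501 barcodes. The measured values of these 17 genes chose the nuclei, so their levels are given below as a description.

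The nuclei came from frozen cortex of untreated wild-type C57BL/6 mice on a normal diet, 3 mice pooled at an age of 18 months and 3 pooled at 2 months, and were run on the 10x Genomics Chromium platform. The series text widens these ages to 18-22 and 2-3 months. Each age was therefore 1 pooled sample, and 1 matrix held both. Its barcodes carry 2 suffixes, called library 1 and library 2 here, but which suffix belongs to which age is not stated in the labels. The libraries are therefore set side by side with no age, no test and no standard deviation.

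Pericytes sit on capillaries within the basement membrane that they share with the endothelium, and smooth muscle cells form the contractile coat of arterioles and venules. Endothelial PDGF-B acting on the receptor PDGFR-beta recruits pericytes to brain vessels, where they support the blood-brain barrier. Smooth muscle contracts when calcium activates myosin light chain kinase, and cyclic nucleotides, potassium channels and receptors for vasoactive peptides set its tone.

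Library 1 held 57 mural nuclei among its 8585 barcodes within the mitochondrial limit, or 0.664% (95% Clopper-Pearson interval 0.503 to 0.859). Library 2 held 77 among 8274, or 0.931% (0.735 to 1.16). The rule asks for detected genes, so these shares depend on depth, and nuclei were not thinned before the choice. Mural nuclei were shallow, with medians of 2068 and 2719 UMIs (unique molecular identifiers, which count RNA molecules) and of 1357 and 1596 genes, beside medians of 7384 and 7714 UMIs in excitatory neurons. Their UMIs came to 195241 and 310568 in all. The libraries shared 19 barcodes, and 0 of them were mural. Levels below are CPM, the UMIs of a gene per 1000000 UMIs of its class and library, with exact 95% Poisson intervals in brackets, and all intervals cover counting error only because nuclei are not replicates. CPM is not scaled by gene length, so a gene is compared between classes of nuclei and not with another gene.

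Beside the label, markers of other cell types that the rule did not use were summed. The reference classes were chosen by these markers, so their own sums are a description. The mural sums are no independent check either. The rule limited the exclusion genes, so low levels of markers that accompany them follow in part from the choice of nuclei. Summed over 8 endothelial markers, mural nuclei held 61.5 and 96.6 CPM in libraries 1 and 2, against 5933 and 6503 CPM in endothelial nuclei. Of the 8, Cldn5 and Cyyr1 were at 0 in library 1 and Mecom in library 2. Over 10 fibroblast markers the sums were 277 and 402 CPM, against 5620 and 5682 CPM in fibroblasts. Col1a1, Col3a1, Slc47a1 and Lum were at 0 in library 1 and Slc47a1 in library 2, and 7 mural nuclei had 3 or more fibroblast markers. Microglial markers summed to 56.3 and 90.2 CPM against 5175 and 5429 CPM in microglia, and astrocyte markers to 425 and 744 CPM against 4118 and 4122 CPM in astrocytes. Oligodendrocyte markers summed to 487 and 718 CPM against 5811 and 6912 CPM in oligodendrocytes.

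Neuronal RNA was the main foreign signal. The 7 excitatory markers outside the rule summed to 1675 and 1597 CPM in mural nuclei against 2486 and 2775 CPM in excitatory neurons. The 4 inhibitory markers outside the rule summed to 1004 and 689 CPM in mural nuclei and to 796 and 854 CPM in excitatory neurons, and no inhibitory class was formed. The 12 synaptic transcripts summed to 32867 and 31153 CPM in mural nuclei against 50046 and 55881 CPM in excitatory neurons. Endothelial nuclei held 24819 and 30743 CPM of them, microglia 23031 and 27681 CPM and fibroblasts 16149 and 16354 CPM. Such RNA was therefore not particular to mural nuclei. The mural sums came in part from 22 deep nuclei, 10 and 12 by library, with over 6000 UMIs each. They held 50.8% and 42.2% of all mural UMIs, and 11 of them had no more than the required 3 mural markers. Synaptic transcripts took 4.40% and 4.95% of UMIs in these deep nuclei and 2.13% and 1.78% in the shallower mural nuclei. In nuclei of at most 6000 UMIs, a limit chosen after the data were seen, endothelial markers summed to 104 and 139 CPM, fibroblast markers to 343 and 685 CPM and excitatory markers to 1291 and 997 CPM. The part of the deep nuclei in the results was not tested, but 164 of 424 gene levels moved by over 1.5 times without them. Ano1 then stood at 448 and 490 CPM, Pde8b at 2852 and 2060 CPM and Ebf1 at 2279 and 2539 CPM, all higher than the levels given below for all mural nuclei.

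**Figure D1:**
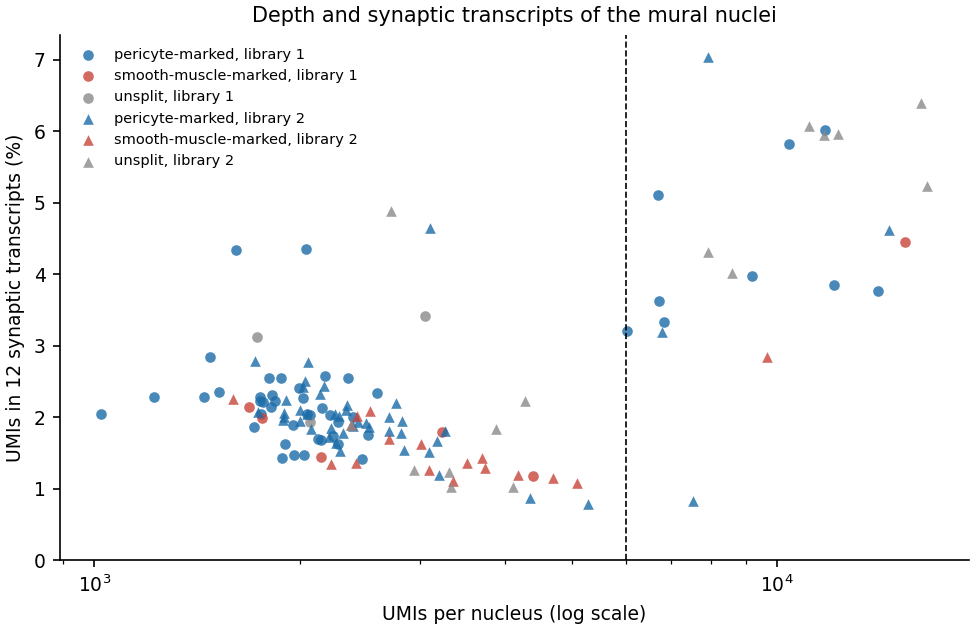
Each point is a mural nucleus, with its UMIs on a log scale along the x axis and the percentage of its UMIs in 12 synaptic transcripts on the y axis. Circles are library 1 and triangles library 2, colours give the split into pericyte-marked, smooth-muscle-marked and unsplit nuclei, and the dashed line at 6000 UMIs sets apart the 22 deep nuclei, which lie higher on the y axis as a group (4.40% and 4.95% of their UMIs, against 2.13% and 1.78%).

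In the plot of depth against synaptic transcripts most mural nuclei form a cloud of low depth, and the deep nuclei lie to its right. Of the 15 nuclei of library 2 that the split described below left unsplit, 7 were among the deep ones. These 15 held 111406 of the 310568 mural UMIs of library 2. Their synaptic transcripts summed to 46658 CPM, near the 55881 CPM of excitatory neurons. Pericyte-marked and smooth-muscle-marked nuclei of library 2 held 25041 and 16581 CPM. The unsplit nuclei met the rule, but whether they are mural was not tested.

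The genes of the rule gave the following picture. Atp13a5, which encodes a cation-transporting ATPase used as a marker of brain pericytes, stood at 1567 CPM (1397 to 1753) in library 1 and 1368 CPM (1241 to 1505) in library 2, and at 2581 and 2138 CPM without the deep nuclei. Endothelial nuclei held 6.17 and 4.48 CPM of it and fibroblasts 293 and 315 CPM. Endothelial nuclei were chosen to carry at most 1 gene of a panel that included Atp13a5, so the low level there follows in part from that choice. Atp13a5 was detected in 51 of the 57 and 53 of the 77 mural nuclei.

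Kcnj8 and Abcc9 encode the pore and the regulatory subunit of the vascular ATP-sensitive potassium channel and are neighbours on chromosome 6, at chr6:142564837-142571614 and chr6:142587862-142702315 (mm10), both on the minus strand and 16247 bases apart. Abcc9 stood at 579 CPM (477 to 696) and 299 CPM (242 to 367) and Kcnj8 at 66.6 CPM (35.5 to 114) and 51.5 CPM (29.4 to 83.7). The gene 5330439B14Rik overlaps Abcc9 on the other strand. Neither subunit gene exceeded 12.5 CPM in endothelial, fibroblast or astrocyte nuclei. Abcc9 was in the panel that limited endothelial and astrocyte nuclei, and all references lay outside the mural rule, so these levels are a description.

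Pdgfrb, the receptor that recruits pericytes, stood at 369 and 328 CPM, Notch3, the Notch receptor of mural cells, at 538 and 415 CPM, and Vtn, the gene of the adhesive glycoprotein vitronectin, at 343 and 370 CPM. Rgs5, a regulator of G protein signalling, had 481 CPM (389 to 589) in library 1 and 383 CPM (317 to 459) in library 2 among mural nuclei, and 780 and 336 CPM in endothelial nuclei. Higd1b was near the detection limit, with 4 and 2 UMIs.

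**Figure D2:**
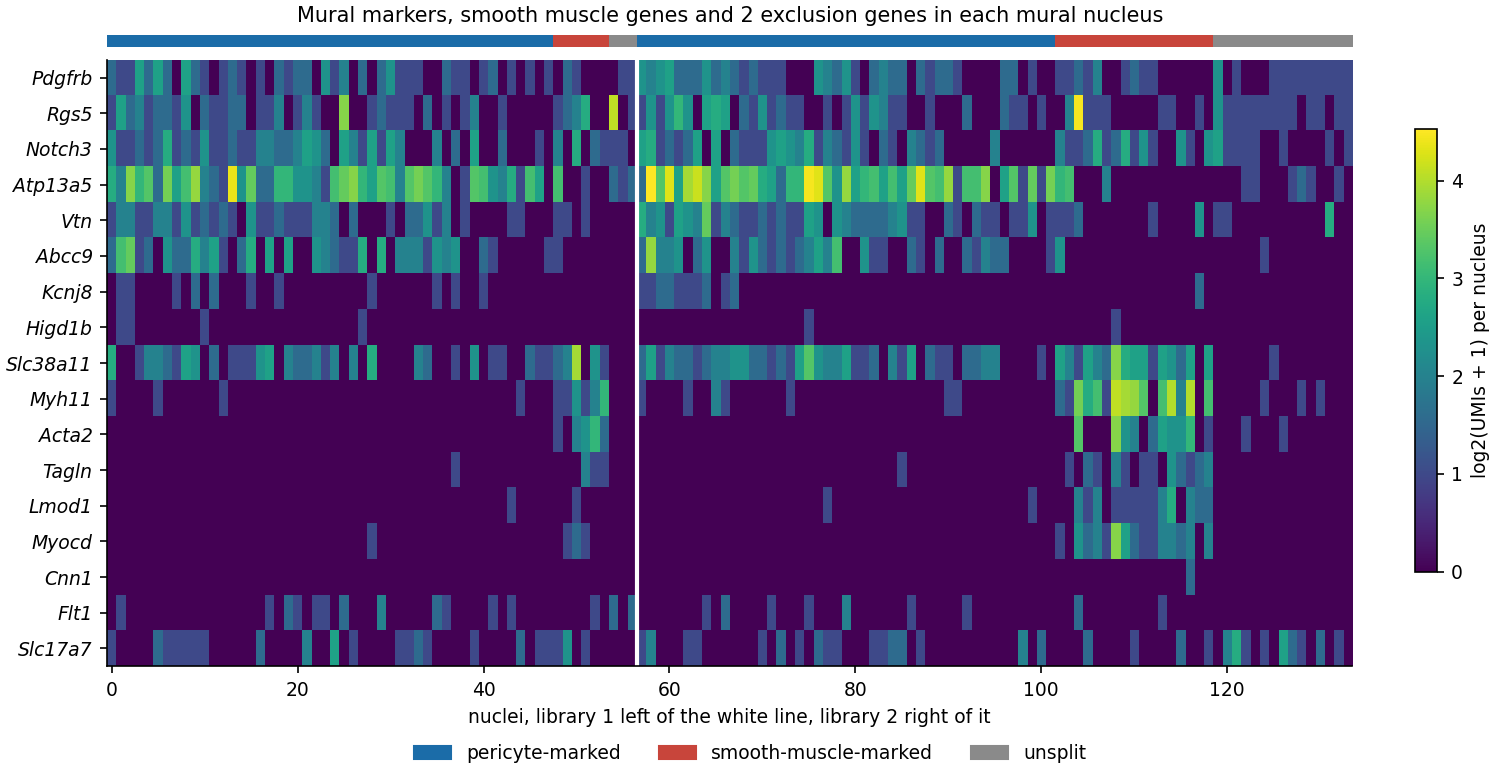
Each column is 1 of the 134 mural nuclei and each row a gene, the 10 genes of the rule with 5 further smooth muscle genes and the exclusion genes Flt1 and Slc17a7, with colour giving log2(UMIs + 1) per nucleus. The bar on top gives the split, library 1 lies left of the white line with 57 nuclei and library 2 right of it with 77, and Myh11, Acta2, Lmod1 and Myocd fill mainly the columns marked as smooth muscle.

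The map of markers by nucleus shows a sparse pattern. Exactly 3 markers were found in 10 and 24 nuclei and none had all 10. Slc17a7, the vesicular glutamate transporter of excitatory neurons, was the most frequent exclusion gene, with a UMI in 22 and 30 mural nuclei, followed by Flt1 in 15 and 9. Barcodes just outside the rule with 2 markers numbered 84 and 242. They were deeper, at medians of 4217.5 and 5796.5 UMIs, and synaptic transcripts took 4.07% and 4.91% of their UMIs, beside 4.01% and 4.26% in nuclei just inside with 3 markers. A further 16 and 35 barcodes missed the rule by having 2 exclusion genes, and 1 in each library by its mitochondrial share.

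After each nucleus was thinned to 1500 UMIs, which left out 4 mural nuclei of library 1, Atp13a5 was detected in 77.4% (63.8 to 87.7) and 58.4% (46.6 to 69.6) of mural nuclei, beside 0.781% and 0.391% of endothelial nuclei. Without thinning these shares were 89.5% and 68.8% against 1.42% and 1.1%, at median depths of 2384 and 2658 UMIs in endothelial nuclei. Ano1, a gene outside the rule, was detected in 35.8% (23.1 to 50.2) and 36.4% (25.7 to 48.1) of thinned mural nuclei and in 0 of 128 and 3 of 256 endothelial nuclei, and in 43.9% and 48.1% of mural nuclei without thinning. Atp13a5 helped to choose the mural nuclei and to limit the endothelial ones, so its shares in both are a description.

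Genes that the rule did not use were then compared between mural nuclei and 4 references, the endothelial nuclei (141 and 272), fibroblasts (54 and 53), astrocytes (268 and 175) and all other kept nuclei (8528 and 8197). A gene was counted when its CPM ratio was at least 4 in either direction, and the same way in both libraries. This has no test and describes these libraries only. The rule excludes nuclei with endothelial and other foreign markers, so low levels of genes that accompany those markers follow in part from the choice of nuclei.

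Against all other nuclei 93 of 3604 genes, or 2.58%, lay 4-fold or more higher in mural nuclei. The 20 genes with the highest ratios were taken among those with at least 10 mural UMIs in each library, without the CPM limit of that count. These 20 included the chloride channel gene Ano1, the phospholipase receptor gene Pla2r1, the transcription factor gene Tbx2 and the endothelin receptor gene Ednra. The aminopeptidase gene Enpep, the laminin chain gene Lamc3 and the gamma-glutamyltransferase genes Ggt1 and Ggt5 were also among them. Ano1 stood at 266 CPM (199 to 349) and 299 CPM (242 to 367) against 3.45 and 4.71 CPM, a ratio of 77.1 and 63.6. Pla2r1 stood at 108 and 80.5 CPM against 0.458 and 1.07 CPM. Ggt5 stood at 118 and 80.5 CPM against 1.60 and 1.70 CPM.

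Adap2, which encodes an ARF GTPase-activating protein, was among these 20 at 389 and 283 CPM against 6.45 and 9.19 CPM, but its level in microglia was higher still, at 521 and 499 CPM. Tbx3os1 stood at 312 and 316 CPM against 1.57 and 2.87 CPM. It lies opposite Tbx3. The strand setting of the counting is not given, so whether reads of the pair were told apart is not known. The other 10 were Gm36823, Gm14005, Pla1a, Art3, Carmn, Slc16a12, Rasl12, Tmem45a, Rbpms and Dock6, with ratios from 28.2 to 363 in library 1 and from 28.3 to 136 in library 2. The single gene 4-fold or more lower than in all other nuclei (0.0277%) was St18, a transcription factor gene, named after its values were seen, at 10.2 and 22.5 CPM against 111 and 108 CPM. Without the deep nuclei 185 genes were higher and 26 lower than in all other nuclei, and with 2 mural markers 11 and 0.

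**Figure D3:**
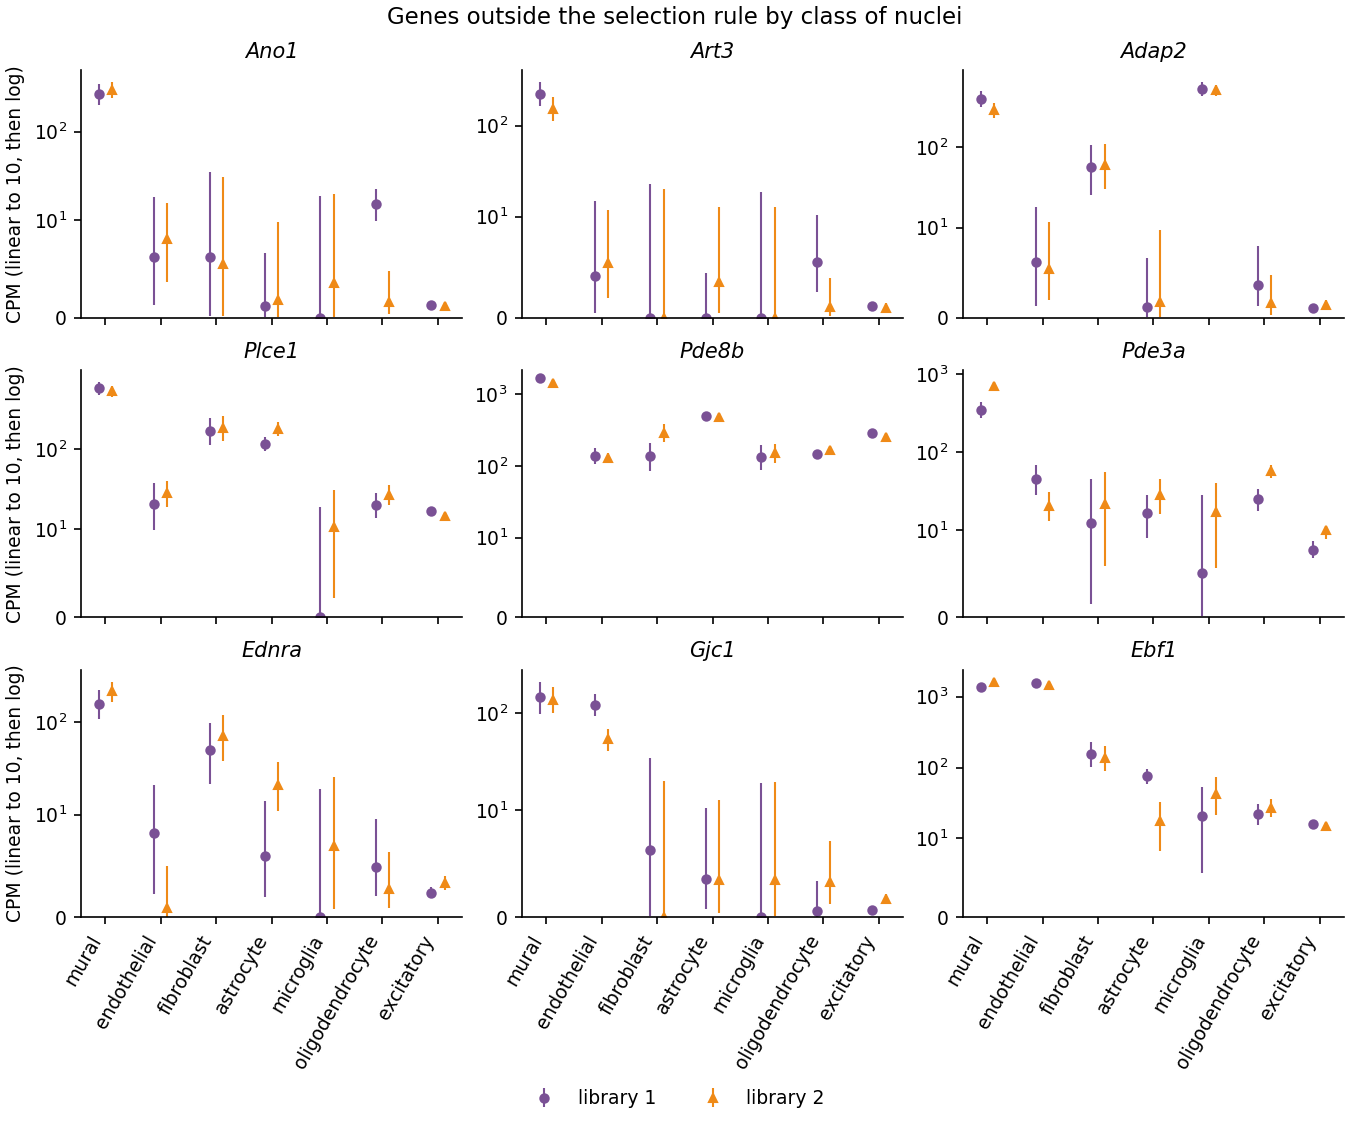
Each panel gives 1 gene, with classes of nuclei along the x axis and CPM on the y axis (linear up to 10, log above), circles for library 1, triangles for library 2 and bars for exact 95% Poisson intervals. Ano1 (266 and 299 CPM in mural nuclei) and Art3 (225 and 155) stand apart from all 6 other classes, Adap2 is also high in microglia (521 and 499), and Ebf1 and Gjc1 are shared with endothelial nuclei.

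The panels of levels by class show 3 patterns. Ano1 and Art3 were low in each of the 6 other classes drawn. Adap2 was shared with microglia, and Plce1 was also present in fibroblasts at 168 and 185 CPM, and in astrocytes at 116 and 178 CPM. Ebf1, a transcription factor gene, stood at 1357 and 1587 CPM in mural and at 1562 and 1455 CPM in endothelial nuclei, and Gjc1, a vascular connexin gene, at 149 and 138 CPM and at 123 and 53.8 CPM.

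Against endothelial nuclei 51 of 3982 genes (1.28%) were 4-fold or more higher in mural nuclei and 118 (2.96%) were 4-fold or more lower. The median log2 ratio over all 3982 genes was -0.01 and -0.03. With at least 2 mural markers in place of 3 only 2 genes were higher, and with mural nuclei of at most 6000 UMIs 106 were.

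**Figure D4:**
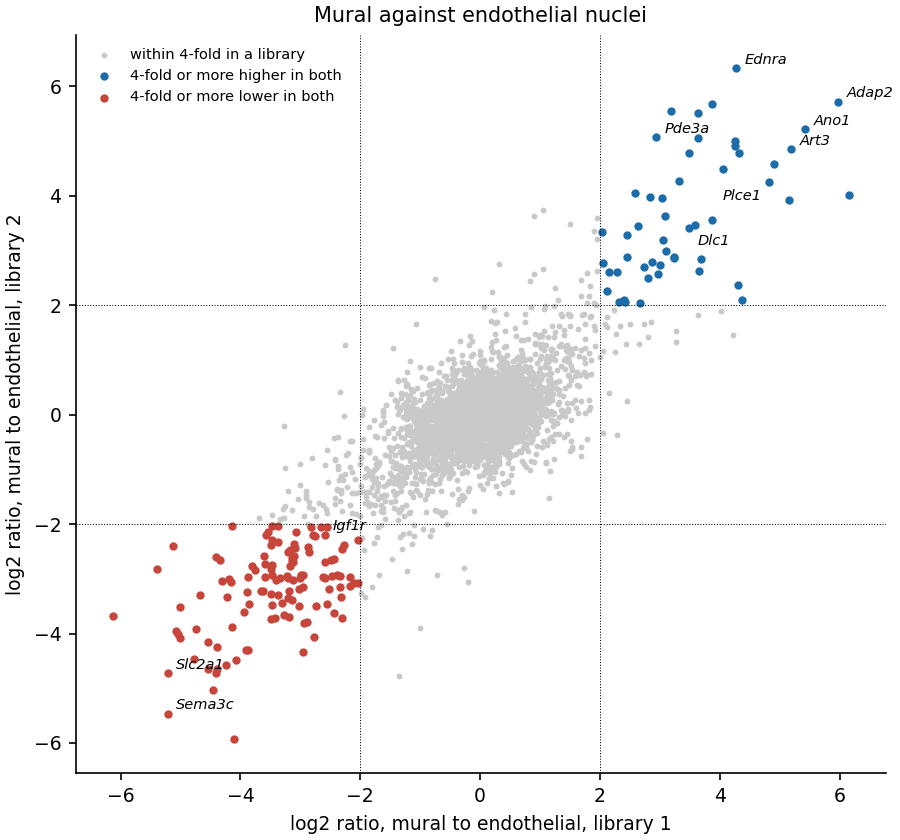
Each point is 1 of 3982 genes, with the log2 ratio of mural to endothelial CPM in library 1 on the x axis and in library 2 on the y axis (summed counts under 3 set to 3). The 51 genes past the dotted 4-fold lines in the upper right include Adap2, Ano1, Art3 and Ednra, and the 118 in the lower left include Slc2a1, Sema3c and Igf1r.

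In the scatter of mural against endothelial ratios the 10 genes highest by the lower of their 2 ratios were Adap2, Ano1, Art3, Sntb1, Bmp5, Ednra, Plce1, Ggt5, Tbx3os1 and Pla2r1. Art3, the gene of an ADP-ribosyltransferase family member, stood at 225 CPM (164 to 303) and 155 CPM (114 to 205) against 4.12 and 5.38 CPM. Cxcl10 and Cxcl11 overlap it on the other strand. Sntb1, the gene of the dystrophin-binding protein syntrophin, stood at 307 and 299 CPM, with ratios of 29.9 and 23.9. Among 24 tested channel and calcium-handling genes 2 were higher, Ano1 among them, and 0 were lower, with a median log2 ratio of 0.70 and 0.47. Plce1, the gene of a phospholipase C outside that list, stood at 579 and 531 CPM against 20.6 and 27.8 CPM. Cacna1c, the pore of the L-type calcium channel, stood at 1178 and 1745 CPM against 494 and 611 CPM, below the 4-fold limit, and its level over all other nuclei was 961 and 954 CPM.

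Of 14 tested genes of cyclic nucleotide signalling, which relaxes vascular muscle, 3 were higher than in endothelial nuclei and 0 lower, with a median log2 ratio of 1.53 and 1.21. The cyclic AMP phosphodiesterase gene Pde8b stood at 1654 CPM (1479 to 1845) and 1417 CPM (1287 to 1556) against 138 and 129 CPM. The phosphodiesterase gene Pde3a stood at 348 CPM (270 to 442) and 692 CPM (603 to 791) against 45.3 and 20.6 CPM. Mrvi1, a target of cyclic GMP-dependent protein kinase, was the third, at 92.2 and 196 CPM against 8.23 and 7.17 CPM. Prkg1, the kinase itself, stood at 2848 and 3046 CPM against 1297 and 1831 CPM and did not reach 4-fold.

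Of 18 tested contractile genes 2 were higher than in endothelial nuclei, Cald1 and Mrvi1, which is on both lists, and 0 were lower. Cald1 encodes caldesmon, which binds actin and restrains myosin, and stood at 712 and 850 CPM against 161 and 140 CPM, but at 674 and 576 CPM in fibroblasts. The median log2 ratio of contractile genes came to 0.44 and 0.90.

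Among receptors for vasoactive signals 6 of 42 in the table could be compared with endothelial nuclei. Ednra, the endothelin receptor of vascular muscle, was higher, at 159 CPM (108 to 225) and 216 CPM (167 to 274) against 8.23 and 0.896 CPM. The latter rests on 1 endothelial UMI, and the ratio of 241 of the unadjusted counts in library 2 has an interval of 41.7 to 9645, beside 19.3 (6.82 to 75.2) in library 1. S1pr1, the sphingosine-1-phosphate receptor of endothelium, and Ramp2 were lower. P2ry14, a receptor for nucleotide sugars, stood at 133 and 171 CPM against 8.23 and 45.7 CPM and missed 4-fold in library 2. Cysltr2, a leukotriene receptor, fell under the entry limit of 50 CPM and was not among the 6. It stood at 46.1 and 64.4 CPM against 6.17 and 0.896 CPM, on few endothelial UMIs.

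Of 11 tested pericyte genes outside the rule, 6 were higher and 1 lower than in endothelial nuclei, with a median log2 ratio of 3.49 and 2.37. The higher ones included Cspg4, Slc6a20a, Art3, Dlc1 and Cald1. Cspg4, the gene of the NG2 proteoglycan, stood at 102 and 161 CPM against 4.12 and 7.17 CPM, and Dlc1, a GTPase-activating protein gene, at 3616 CPM (3354 to 3893) and 2702 CPM (2522 to 2891) against 321 and 255 CPM. The lower one was Adgrf5. The list names this class, so its direction is no independent evidence.

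Transport genes went both ways, with 3 of 17 higher and 3 lower. Slc6a20a, an amino acid transporter gene, stood at 773 and 464 CPM against 39.1 and 89.6 CPM, and at 1809 and 1327 CPM in fibroblasts. Slc16a12 of the monocarboxylate transporter family was also higher, at 164 and 241 CPM with ratios of 9.96 and 19.2. The lower ones were the glucose transporter gene Slc2a1, at 25.6 and 25.8 CPM against 949 and 680 CPM, Abcc4 and Slc7a1.

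Of 16 tested basement membrane genes 1 was higher and 2 were lower, with a median log2 ratio of 0.01 and 0.35. Lama2, a laminin chain gene, stood at 779 and 441 CPM against 53.5 and 37.7 CPM, beside 1235 and 701 CPM in fibroblasts. The lower ones were the fibronectin gene Fn1 and the elastin gene Eln. Among 15 adhesion and junction genes 0 were higher and 1, Itga6, was lower. The integrin gene Itga1 stood at 241 and 370 CPM against 187 and 181 CPM, and at 6.77 and 14.8 CPM over all other nuclei.

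Of 17 tested transcription factor genes Zic1 and Zic4 were higher and the flow-responsive factors Klf2 and Klf4 lower. Zic1 stood at 154 and 61.2 CPM against 37.0 and 8.96 CPM and Zic4 at 123 and 74.1 CPM against 20.6 and 4.48 CPM. The pair overlaps on opposite strands, and without the strand setting it is not known whether their reads were told apart.

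Rule genes were left out of the counts that follow, so the receptor genes Pdgfrb and Notch3, given above, are not in them. Of 10 tested genes of PDGF, angiopoietin and VEGF signalling 0 were higher in mural nuclei. The 6 lower ones were Pdgfb, Pdgfd, Tek, Vegfc, Kdr and Igf1r, and the median log2 ratio was -2.58 and -2.39. Igf1r stood at 446 and 415 CPM in mural nuclei against 2690 and 1900 CPM, close to its level over all other nuclei of 370 and 337 CPM. Of 18 tested genes of TGF-beta and BMP signalling Bmp5 was higher, at 123 and 74.1 CPM against 4.12 and 1.79 CPM, and Acvrl1, Eng, Id1, Smad6 and Smad7 were lower. In the Notch pathway 0 of 6 tested genes passed 4-fold either way. Hey2, a Notch target, fell under the entry limit of 50 CPM and was not among the 6. It stood at 51.2 and 35.4 CPM against 6.17 and 9.86 CPM. Of 5 tested genes of familial brain calcification 0 were higher and 2, Pdgfb and Jam2, were lower. The phosphate exporter gene Xpr1 stood at 195 and 184 CPM in mural and at 255 and 218 CPM in endothelial nuclei.

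The 10 genes lowest in mural relative to endothelial nuclei were Sema3c, Slc2a1, Abcc4, Paqr5, Prom1, Prkch, Zfp366, Fgd5, Acer2 and Fli1. Sema3c, the gene of a secreted semaphorin, stood at 20.5 and 6.44 CPM against 757 and 426 CPM. Each of the 10 had at most 10 mural UMIs in either library.

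Against fibroblasts 49 of 4127 genes (1.19%) were higher and 126 (3.05%) lower, and 77 and 81 without the deep nuclei. The channel genes Ano1, Trpc4 and Trpc6 were among the higher ones, as were Prkg1, Gucy1a2, Pde3a and Pde8b of the cyclic nucleotide list. Ebf1 stood at 156 and 136 CPM in fibroblasts, a ratio of 8.70 (5.77 to 13.7) and 11.7 (7.82 to 18.2). The genes lowest in mural nuclei were Eya2, Adamtsl3, Slc38a2, Efemp1, Dock5, Aox3, Prdm6, Col25a1, Foxp2 and Lama1. Foxp2, a transcription factor gene, stood at 46.1 and 86.9 CPM against 1223 and 1272 CPM, and Lama1, a laminin chain gene of the meninges, at 41.0 and 29.0 CPM against 586 and 468 CPM. Against astrocytes 75 of 3859 genes (1.94%) were higher and 80 (2.07%) lower, and without the deep nuclei 144 and 42. With 2 mural markers 16 were higher. The highest included Tbx3os1, Ano1, Adap2, Egflam, Gjc1 and Igfbp7, the gene of a secreted protein of the vessel wall, which stood at 328 and 367 CPM against 4.77 and 14 CPM.

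Mural nuclei were next divided by smooth muscle genes. A nucleus with at least 2 of Myh11, Acta2, Tagln, Lmod1, Myocd and Cnn1 was called smooth-muscle-marked, and one of the rest with at least 2 of Kcnj8, Abcc9, Vtn, Atp13a5, Higd1b and Slc38a11 pericyte-marked. There were 6 and 17 smooth-muscle-marked, 48 and 45 pericyte-marked and 3 and 15 unsplit nuclei in libraries 1 and 2. Pericyte-marked nuclei made up 0.559% and 0.544% of the barcodes within the mitochondrial limit, smooth-muscle-marked ones 0.0699% and 0.205% and unsplit ones 0.0349% and 0.181%. Of the 28596 smooth-muscle-marked UMIs of library 1, 53.8% came from 1 nucleus of 15391 UMIs. That nucleus had 1 UMI each of Myh11 and Myocd, 4 of Slc17a7 and 4.46% of its UMIs in synaptic transcripts. Its doublet score (Scrublet) was 0.421. The direction of genes in library 1 therefore rests in large part on this nucleus. Levels of the 2 groups are given over both libraries together, on 88906 and 298652 UMIs.

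The genes of the split gave Myh11, smooth muscle myosin, 1653 CPM (1397 to 1943) against 43.5 CPM (23.2 to 74.4). Acta2, smooth muscle actin, stood at 765 CPM (594 to 970) with 0 UMIs in pericyte-marked nuclei. Slc38a11, counted among the pericyte genes, was higher in smooth-muscle-marked nuclei, at 1046 CPM (844 to 1281) against 586 CPM (502 to 680). It is also a gene of the rule, carried by 5 of 6 and 16 of 17 smooth-muscle-marked nuclei, so these levels are a description.

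Outside the split genes, 101 of 3924 genes (2.57%) were 4-fold or more higher in smooth-muscle-marked nuclei, with the same direction in both libraries, and 27 (0.688%) were 4-fold or more higher in pericyte-marked nuclei. With 1 smooth muscle gene required in place of 2, the former count was 52, and with 3 required the latter was 48.

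Of 20 tested contractile genes 10 were higher in smooth-muscle-marked nuclei, Mylk, Tpm1, Synpo2, Map3k7cl, Rock1, Ppp1r12a, Flna, Actn1, Actn4 and Vcl, and 0 in pericyte-marked nuclei, with a median log2 ratio of 2.13 against -0.01 over all genes tested. Nuclei were chosen by contractile genes, so this direction follows the choice. Mylk, myosin light chain kinase, stood at 720 CPM (554 to 919) against 154 CPM (113 to 205). Ppp1r12a, the targeting subunit of myosin phosphatase, stood at 1800 CPM (1532 to 2101) against 392 CPM (324 to 469.5). Vcl, the gene of vinculin at chr14:20929398-21033676 (mm10), which links actin to adhesion sites and is overlapped by Ap3m1, stood at 967 CPM (774 to 1195) against 191 CPM (145 to 247).

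The 10 genes highest in smooth-muscle-marked nuclei were Palld, Entpd1, Pdlim5, Pdlim3, Ltbp1, Synpo2, Prdm16, Nexn, Angpt1 and Ntn4. Pdlim5, a scaffold of the actin cytoskeleton, stood at 2385 CPM (2074 to 2728) against 60.3 CPM (35.7 to 95.3). By library it was 280 and 3383 CPM in smooth-muscle-marked nuclei and 31.3 and 93.6 CPM in pericyte-marked nuclei, so the level rested mainly on library 2. Palld, another actin scaffold, stood at 461 CPM against 6.70 CPM, on 2 pericyte-marked UMIs.

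Ltbp1, the gene of a protein that anchors latent TGF-beta, stood at 832 CPM (654 to 1045) against 33.5 CPM (16.1 to 61.6). Angpt1, the ligand of the endothelial receptor gene Tek, stood at 596 CPM (447 to 779.8) against 40.2 CPM (20.8 to 70.2). Ntn4, a laminin-related basement membrane gene, stood at 1069 CPM (865 to 1306) against 80.4 CPM (51.5 to 120). Of 16 tested basement membrane genes 4 were higher here, Col4a5, Col4a6, Eln and Ntn4. Of 12 tested genes of TGF-beta and BMP signalling 2 were, Tgfb2 and Ltbp1, and of 8 tested genes of PDGF, angiopoietin and VEGF signalling 3 were, Pdgfc, Pdgfd and Angpt1. Nrp1 of the same list was higher in pericyte-marked nuclei. Fibroblast markers summed to 699 and 232 CPM in smooth-muscle-marked and 207 and 447 CPM in pericyte-marked nuclei of libraries 1 and 2, and their part in these levels was not tested.

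Higher in smooth-muscle-marked nuclei were also Notch2, 1 of 8 tested Notch genes, Prrx1, 1 of 20 transcription factor genes, Slc7a1, 1 of 17 transport genes, and Itga8 and Cdh6, 2 of 16 adhesion and junction genes. Cdh13 of the last list was higher in pericyte-marked nuclei. Of 14 tested cyclic nucleotide genes 1 was higher in each group. Pde3a stood at 2227 CPM (1928 to 2560) in smooth-muscle-marked and 275 CPM (218 to 341) in pericyte-marked nuclei, and Pde8b at 495 CPM (359.6 to 664) and 2277 CPM (2109 to 2455).

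Among the genes highest in pericyte-marked nuclei were Grm3, Cdh13, Art3, Plxdc2, Dtnb, Cdh9, Ano4, Prex2 and Xylt1. Grm3, a metabotropic glutamate receptor gene, stood at 1426 CPM (1294 to 1569) against 191 CPM (111 to 306), and astrocytes held 996 and 1728 CPM of it. Plxdc2 stood at 1487 CPM (1352 to 1632) against 236 CPM (146 to 361). Cdh13, Dtnb and Xylt1 stood lower in mural nuclei than over all other nuclei in both libraries, for example at 225 and 338 CPM against 406 and 433 CPM for Cdh13. Synaptic transcripts summed to 33298 and 25041 CPM in pericyte-marked and 31403 and 16581 CPM in smooth-muscle-marked nuclei of libraries 1 and 2, and their part in these 3 genes was not tested.

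Ano1 did not differ between the groups by more than counting error. It stood at 371 CPM (256 to 521) and 368 CPM (303 to 444), a ratio of 1.01 (0.661 to 1.5).

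**Figure D5:**
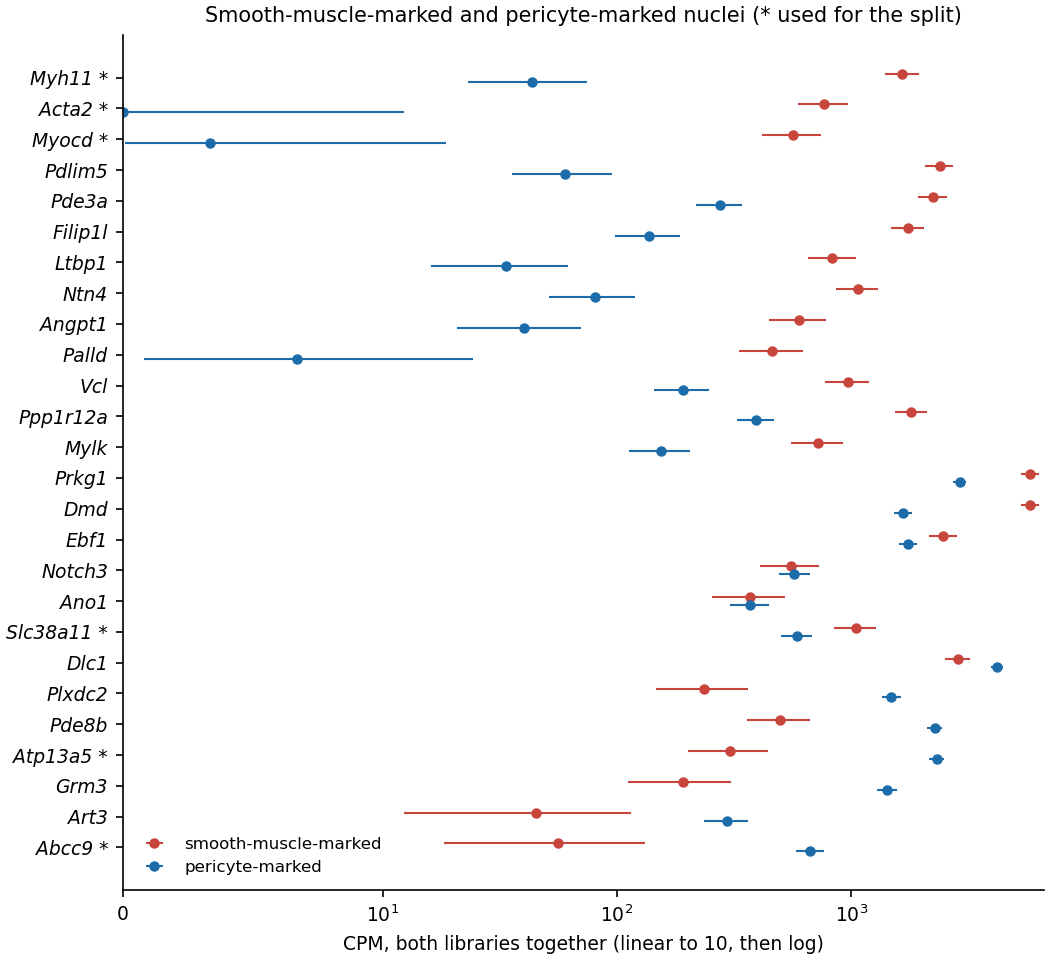
Points give the CPM of 26 genes in smooth-muscle-marked (red) and pericyte-marked (blue) nuclei over both libraries together, on an axis that is linear up to 10 and log above, with exact 95% Poisson intervals. Genes marked with an asterisk were used for the split. Red lies far right of blue for Pdlim5 (2385 and 60.3 CPM) and Ltbp1 (832 and 33.5), the order is the reverse for Grm3 (191 and 1426), and the intervals of Ano1 overlap.

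The plot of split levels orders genes from the smooth muscle side to the pericyte side. Dmd, the dystrophin gene, and Prkg1 lie between, with 5793 and 5804 CPM in smooth-muscle-marked and 1661 and 2906 CPM in pericyte-marked nuclei.

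Contractile genes are known targets of serum response factor, which with its partner myocardin binds the CArG box. RefSeq promoter entries on the build GRCm38.p6 were searched for this motif on both strands in the 250 bases before each start. Only strict matches counted, with nothing but A or T between CC and GG. Of 34 contractile and smooth muscle split genes 27 had an entry, and 5 of these held a CArG box, Ldb3, Myl6, Myl9, Srf and Vcl, beside 1.62% of 27025 genes and 1.47% of 32851 promoters. Of 10 genes of the pericyte split and the mural rule 7 had an entry and 0 held one. A match describes these letters only. Looser forms and other distances were not searched, so a gene without a match or an entry may still hold a CArG box. The windows of 50 bases below, 5′ to 3′ on each gene's strand with the motif in capitals, show the matched sites. They lie at chr14:20929151-20929200 (plus strand) for Vcl, chr2:156775283-156775332 (plus) for Myl9, chr14:34588687-34588736 (minus) for Ldb3, chr10:128493030-128493079 (minus) for Myl6 and chr17:46556215-46556264 (minus) for the first of 2 sites of Srf, the serum response factor gene itself.
Vcl: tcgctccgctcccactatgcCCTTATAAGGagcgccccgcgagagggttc
Myl9: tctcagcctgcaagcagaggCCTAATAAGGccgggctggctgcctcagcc
Ldb3: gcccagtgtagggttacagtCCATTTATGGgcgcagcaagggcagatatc
Myl6: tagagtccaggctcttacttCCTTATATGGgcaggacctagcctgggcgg
Srf: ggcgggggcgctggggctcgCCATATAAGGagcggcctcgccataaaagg

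Of these 5 genes only Vcl was among the 101. Myl9, a regulatory myosin light chain, stood at 180 CPM (103 to 292) in smooth-muscle-marked and 70.3 CPM (43.5 to 107) in pericyte-marked nuclei, and Myl6, an essential light chain, at 157 CPM (86.1 to 264) and 60.3 CPM (35.7 to 95.3). Ldb3 had 10 and 2 UMIs and Srf 3 and 2, too few to place them.

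Between the libraries, 76 of 2569 genes with at least 40 mural UMIs were 2-fold or more higher in library 1 (2.96%) and 109 were 2-fold or more higher in library 2 (4.24%). Library 2 held 17 of the 23 smooth-muscle-marked nuclei, and 7 of 16 tested contractile genes were higher there, Tpm1, Synpo2, Mrvi1, Myocd, Flna, Actn4 and Vcl, against 0 in library 1. Smooth-muscle-marked nuclei held 28596 of the 195241 mural UMIs of library 1 and 60310 of the 310568 of library 2. Whether fewer smooth muscle nuclei or less RNA per nucleus set these levels was not tested, and the libraries' ages are not known here.

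Pdlim5 stood at 71.7 CPM (39.2 to 120) in library 1 and 712 CPM (621 to 812) in library 2, and Ltbp1 at 41.0 and 251 CPM. Both are among the genes highest in smooth-muscle-marked nuclei. Within smooth-muscle-marked nuclei Pdlim5 also differed between libraries, as given above, and 1 nucleus held 53.8% of their UMIs in library 1.

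The largest gap between libraries, Sorbs2os, was also present outside mural nuclei. It stood in mural nuclei at 25.6 CPM (8.32 to 59.8) and 332 CPM (271 to 402), at 32.9 and 359 CPM in endothelial nuclei and at 31.2 and 279 CPM over all other nuclei. Sorbs2os lies opposite Sorbs2, and without the strand setting it is not known whether their reads were told apart. Dnah12 and Npsr1, at 0 and 135 CPM and at 5.12 and 126 CPM, rested on few nuclei, 2 and 4 of library 2. Gm15261 stood at 15.4 and 177 CPM with UMIs in 3 and 35 nuclei, and lies opposite Arhgap6. The other genes of the 10 with the largest gaps were Gm10754, Errfi1, Prdm16 and Palld.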

How the data were processed

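Single-nucleus RNA was measured in 2 pooled samples of mouse cortex. The authors deposited raw UMI counts per gene and barcode as 1 matrix of 30905 genes and 17501 barcodes, holding 118655443 UMIs. The submitters' processing notes name Cell Ranger 2.0.1, Seurat 3.1, R 4.0.2 and the build mm10, while the file header gives Cell Ranger 3.1.0, so the version behind the counts is not settled. No source read for this work says how counting used strand or how barcodes were filtered.

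From these counts, nuclei were chosen by the stated rule, UMIs were summed per class and library, and CPM, ratios and exact 95% intervals were computed (Python 3.11.15, numpy 2.4.6, scipy 1.17.1, pandas 2.3.3, scanpy 1.11.5, figures with matplotlib 3.10.9). Reference classes needed at least 3 markers of their own and at most 1 of the other classes' panel, and 3372 barcodes that met several classes were left out of them. For mural nuclei the panel held Pdgfrb, Abcc9 and Atp13a5, which did not limit fibroblasts. Genes entered a comparison at a mean of at least 50 CPM over both classes and libraries, summed counts under 3 were set to 3 for the calls and medians but not for printed ratios, and rule genes, class markers and panel genes were left out. No test was run, since each age is 1 pooled sample and no label ties a barcode suffix to an age. Doublets were left to the exclusion genes. Scrublet's automatic threshold marked 0 and 2 barcodes and had not worked. The 8 mural nuclei that scored 0.2 or more all had over 6000 UMIs.

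The members and the gene lists were chosen with earlier results of these data known. Named genes were all rule and split genes, the 6 members of each list with most mural UMIs, the 20 highest ratios against all other nuclei, the 10 highest or lowest against single classes, between split groups and between libraries, and list members past the fold. Other genes named for a role were picked after their values were seen. Gene positions came from GENCODE vM21 on mm10, and promoters from RefSeq on GRCm38.p6. The fold rule was checked on simulated data for mural against endothelial nuclei, where it called 100 of 100 genes changed 8-fold, 0 of 100 changed 2-fold and 0 of 3593 unchanged genes. The simulated sums were Poisson draws from a profile shared by both classes, with changed genes at 100 CPM or more. They held no spread between nuclei and no foreign RNA, so they cannot give the rate of false calls in the real nuclei. Intervals cover counting error only. Other limits on markers, mitochondrial share, depth, doublet score, weighting, fold and thinning were tried as alternatives. Some genes that the naming rule selects are not reported here.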

Additional observations from a re-analysis of the deposited data

How the results depend on the processing

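Counts of nuclei and genes depended on how mural nuclei were chosen. The genes that reach the CPM limit can change with the choice, so counts of genes under different choices have no common total. With at least 2 mural markers there were 141 and 319 nuclei in libraries 1 and 2 and 45 smooth-muscle-marked nuclei. Genes higher in mural nuclei then numbered 2 against endothelial nuclei, 16 against astrocytes and 11 against all other nuclei, with 0 lower than the last. Pericyte-marked nuclei had 15 higher genes, and the libraries differed in 401 and 259. With at least 4 markers there were 15 smooth-muscle-marked nuclei, 82 genes higher than in endothelial nuclei, 117 higher than in astrocytes and 3 lower than in all other nuclei.

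With a mitochondrial limit of 1% there were 12 and 28 nuclei, 10 smooth-muscle-marked and 21 pericyte-marked. Genes higher and lower numbered 20 and 44 against endothelial nuclei, 31 and 28 against astrocytes and 59 and 0 against all other nuclei, 191 and 63 were higher in smooth-muscle-marked and pericyte-marked nuclei, and 43 were higher in library 1. With no exclusion gene allowed there were 16 and 31 nuclei, 12 smooth-muscle-marked and 30 pericyte-marked. Genes higher and lower numbered 83 and 54 against endothelial and 141 and 3 against all other nuclei, 34 were lower than in fibroblasts, 37 lower than in astrocytes and 55 higher in library 2.

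With mural nuclei of at most 6000 UMIs, an alternative chosen after seeing the data, 106 genes were higher than in endothelial nuclei, 77 higher and 81 lower than in fibroblasts, 144 and 42 against astrocytes and 185 and 26 against all other nuclei, and 31 were higher in library 1. With equal weight per nucleus 93 genes were higher than in endothelial nuclei, 126 than in astrocytes and 2 lower than in all other nuclei. At a mean of at least 20 CPM 88, 145 and 183 genes were higher than in endothelial nuclei, astrocytes and all other nuclei, and 2 lower than in the last. At a fold limit of 2, higher and lower genes numbered 152 and 280 against endothelial nuclei, 320 and 340 against fibroblasts, 192 and 253 against astrocytes and 210 and 25 against all other nuclei. With at least 1 smooth muscle split gene 45 nuclei were smooth-muscle-marked and 52 genes were higher in them, and with at least 3 there were 48 genes higher in pericyte-marked nuclei.

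Of 424 gene levels, 191 moved by over 1.5 times with at least 2 markers, 164 with at most 6000 UMIs, 7 without doublet scores of 0.2 or more, and 0 with no mitochondrial limit or a minimum of 1000 UMIs. No paired analysis was possible because each age is 1 pooled sample and no test was run. Summed depth of 195241 and 310568 UMIs limits levels of rare transcripts.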
